A study of Mus musculus with 6 samples.

Results

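*Alpl*, *Phex*, *Dmp1*, *Ibsp*, *Spp1*, *Bglap*, *Bglap2* and *Sparc* are genes that bone-forming cells use to build and mineralize matrix, and their chromatin was examined in skeletal stem and progenitor cells (SSPCs) from young and middle-aged mice. They were taken as a list of 8 genes by name, out of 21853 protein-coding genes in the GENCODE annotation of the mouse genome build mm10. For each gene the called peaks within 1 kb of any protein-coding transcription start site (TSS) were collected, together with the peaks in the gene body and in the 20 kb upstream of it, which is called the locus of the gene below. Accessibility was measured by ATAC-seq, which reads out open chromatin because a transposase cuts it more readily than packed chromatin. There were 3 young and 3 middle-aged libraries, all from untreated C57BL/6 mice, and the labels give the ages only in these words. The cells were plate-adherent marrow cells of tibiae and femora at the first passage, from at least 3 mice according to the labels, which do not say which mouse gave which library. A p-value below therefore measures the spread between these libraries, and in such bulk samples fewer cells of a type cannot be told apart from less open chromatin per cell.

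Mineral forms in bone when phosphate is set free near collagen while its inhibitors are removed, and osteoblasts and osteocytes control both steps. *Alpl* encodes tissue-nonspecific alkaline phosphatase, which cleaves the inhibitor pyrophosphate, and *Phex* encodes an endopeptidase of osteocytes that guards phosphate balance. *Dmp1*, *Ibsp* and *Spp1* encode acidic, phosphorylated matrix proteins (dentin matrix protein, bone sialoprotein and osteopontin) whose genes lie near each other on chromosome 5. *Bglap* and *Bglap2* encode osteocalcin, the calcium-binding protein of late osteoblasts, and *Sparc* encodes osteonectin, a collagen-binding glycoprotein that many stromal cells also secrete.

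The sequences of 4 promoters are shown first because these genes differed most in their peaks: *Spp1* had a TSS peak in every library, *Alpl* in some of the middle-aged libraries, and *Bglap* and *Ibsp* in none. Each runs from 250 bases before to 50 bases after the RefSeq start (GRCm38.p6, the assembly of mm10), 5′ to 3′ on the strand of the gene. Capitals mark matches, on either strand, to TATAAA (the letters of the TATA box), to CCAAT (the CCAAT box), to GGGCGG (the GC box), to TGTGGT (the core that RUNX factors bind) or to TGANTCA (the type of site bound by AP-1).
Spp1, chr5:104434861-104435160, plus strand: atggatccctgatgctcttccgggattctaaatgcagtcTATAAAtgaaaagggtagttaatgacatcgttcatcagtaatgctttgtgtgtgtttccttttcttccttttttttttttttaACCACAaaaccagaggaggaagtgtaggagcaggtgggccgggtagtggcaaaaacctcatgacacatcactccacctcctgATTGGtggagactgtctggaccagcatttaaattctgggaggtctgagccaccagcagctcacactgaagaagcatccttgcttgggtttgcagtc
Alpl, chr4:137796335-137796634, minus strand: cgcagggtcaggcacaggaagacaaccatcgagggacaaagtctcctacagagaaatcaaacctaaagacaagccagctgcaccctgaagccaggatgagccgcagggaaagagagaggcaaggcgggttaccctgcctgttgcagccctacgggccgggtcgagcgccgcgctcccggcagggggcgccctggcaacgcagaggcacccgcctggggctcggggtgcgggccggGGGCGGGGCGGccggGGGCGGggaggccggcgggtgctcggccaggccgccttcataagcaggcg
Bglap, chr3:88384417-88384716, minus strand: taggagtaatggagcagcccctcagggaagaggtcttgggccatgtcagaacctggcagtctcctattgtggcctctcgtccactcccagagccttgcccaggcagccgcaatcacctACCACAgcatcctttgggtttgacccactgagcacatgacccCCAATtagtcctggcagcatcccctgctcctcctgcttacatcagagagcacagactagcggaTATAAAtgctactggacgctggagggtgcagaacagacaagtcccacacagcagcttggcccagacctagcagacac
Ibsp, chr5:104299037-104299336, plus strand: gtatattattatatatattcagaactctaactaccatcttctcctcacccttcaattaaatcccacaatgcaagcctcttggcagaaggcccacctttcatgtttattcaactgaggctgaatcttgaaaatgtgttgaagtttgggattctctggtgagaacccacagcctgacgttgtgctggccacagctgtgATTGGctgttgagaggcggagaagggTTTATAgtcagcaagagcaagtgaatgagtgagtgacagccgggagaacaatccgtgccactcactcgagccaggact

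The Alpl promoter held 26 CpGs and 3 GGGCGG matches, which overlap in part, whereas the promoters of *Spp1*, *Bglap* and *Ibsp* held 3, 4 and 5 CpGs. *Bglap* had TATAAA 27 bases and *Ibsp* its reverse complement 28 bases before the start, and the TATAAA of *Spp1* lay 211 bases before it. TGTGGT or its reverse complement occurred in the Spp1 and Bglap promoters. Among all 32851 RefSeq promoters of this length, TATAAA was present in 13.6%, CCAAT in 37.4%, GGGCGG in 35.7%, TGTGGT in 16.8% and TGANTCA in 7.81%. The RefSeq promoter table matched 7 of the 8 genes, all but *Bglap2*.

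A TSS peak in all 6 libraries was found for *Spp1* and *Sparc*, that is for 2 of the 8 genes, beside 48.4% of all protein-coding genes. *Bglap*, *Bglap2*, *Ibsp* and *Phex*, 4 of the 8, had no TSS peak in any library, beside 38.5% of all genes. *Dmp1* had a TSS peak in young 2 and in middle-aged 1, 2 and 3, and *Alpl* in middle-aged 1 and 3. Both of these were thus called in more middle-aged than young libraries, as were 77.4% of all genes with a TSS peak in 1 to 5 libraries. The number of the 8 genes with a TSS peak was 2, 3 and 2 in young 1, 2 and 3, against 4, 3 and 4 in middle-aged 1, 2 and 3. The means were 2.33 ± 0.577 in young and 3.67 ± 0.577 in middle-aged (SD, n = 3), a difference of 1.33, and the groups met at 3. When every list was cut to its 27628 best peaks, the length of the shortest list, this difference turned to -0.333, and with a window of 500 bp it was 0.667. With the cut lists *Spp1* kept a TSS peak in every library, whereas *Sparc* did not.

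**Figure D1:**
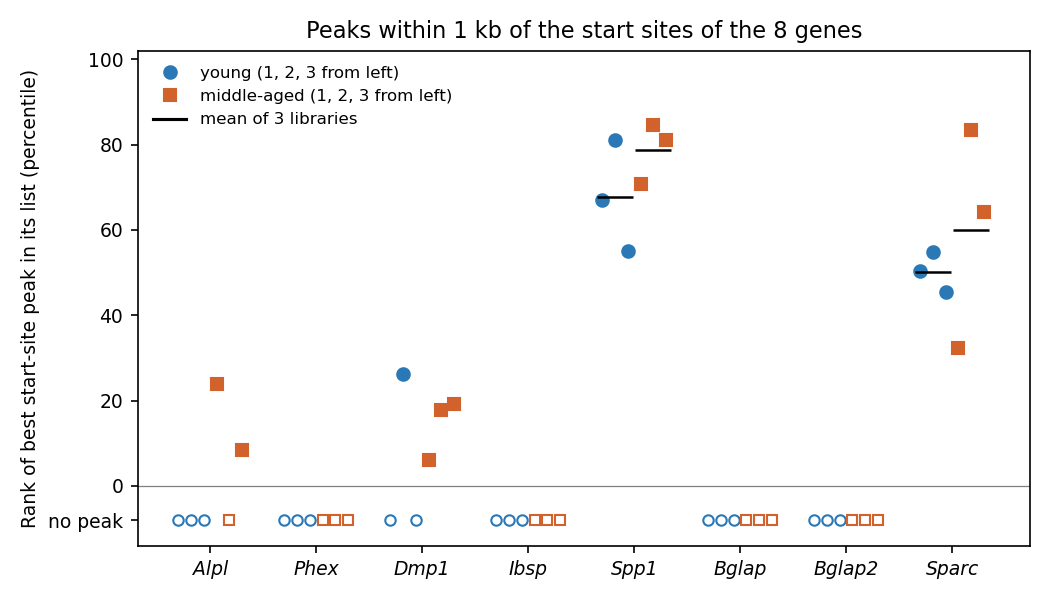
Rank of the best peak within 1 kb of a start site (y axis, percentile of the library's own peak list) for the 8 genes (x axis), with young libraries as circles, middle-aged libraries as squares and black lines for the means of genes called in all 6. Open symbols in the lower band mark libraries with no peak. *Spp1* and *Sparc* were called throughout, *Dmp1* in 4 and *Alpl* in 2 libraries at ranks below 30, and the other 4 genes in none.

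The libraries differed in depth, and the part of depth in these counts was not tested. The genome-wide background, in extended reads per base, was between 1.65 and 3.75 in young and between 2.40 and 2.79 in middle-aged libraries, and the lists held 27628 to 43941 peaks in young and 46364 to 48344 in middle-aged libraries. Young 3 was the shallowest library with the shortest list. The share of all genes with a TSS peak was 53.6% ± 3.72 in young and 57.6% ± 0.328 in middle-aged libraries (SD, n = 3). The smallest pile-up of reads called was between 8 and 13 reads per list, at sites where the local background equalled the genome-wide one, and where the local background was higher more reads were needed. A gene without a called peak is therefore not shown to have closed chromatin. The labelled cell type was checked against its markers. Of 8 SSPC markers, *Kitl*, *Ebf3* and *Foxc1* had a TSS peak in all 6 libraries, whereas *Lepr* and *Prrx1* had none. Of 8 hematopoietic markers 5 had a TSS peak in all 6 libraries, among them *Ptprc*, *Spi1* and the macrophage genes *Adgre1* and *Cd68*, with 5 to 6 markers called per young and 5 per middle-aged library. Among these lists, *Pdgfra* was called at its start in 1 young and 3 middle-aged libraries and *Csf1r* in 2 young and 0 middle-aged libraries, and *Ebf3* and *Adgre1* ranked higher in every middle-aged than in every young library. Of 6 endothelial markers 1 was called in all 6 libraries, of 3 adipocyte markers 1 and of 3 chondrocyte markers 0.

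*Spp1*, the osteopontin gene, had the most prominent TSS peak of the 8 genes. The peak spanned chr5:104434817-104435249, over the first exon of *Spp1* and an exon of the unconfirmed transcript *Gm42793*, with its summit 42 bp upstream of the start, inside the promoter printed above. A rank is the percentile of a peak in its own list ordered by −log10 q, with 100 for the strongest. The Spp1 rank was 66.9, 81.1 and 55.2 in young 1, 2 and 3, against 70.8, 84.5 and 81.0 in middle-aged 1, 2 and 3. The middle-aged values were all above those of young 1 and young 3, but young 2 lay above 2 of them, so the groups overlapped. The mean rank was 67.8 ± 13.0 in young and 78.8 ± 7.10 in middle-aged (SD, n = 3), a difference of 11.0 that did not exceed the spread (two-sided exact permutation test, p = 0.3, where 3 against 3 libraries cannot go below 0.1). The difference was 4.74 without young 3, 17.7 without young 2 and 3.14 with equally long lists.

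The fold enrichment of the Spp1 peak, the summit pile-up over the local background with 1 added to each, was 7.19, 9.60 and 6.47 in young 1, 2 and 3. It was 7.50, 11.0 and 9.08 in middle-aged 1, 2 and 3, again with young 2 among the middle-aged values. The means of 7.75 ± 1.64 and 9.18 ± 1.74 (SD, n = 3) differed by 1.43 (two-sided exact permutation test, p = 0.4). The pile-up itself was 39, 56 and 25 reads in young and 41, 60 and 60 reads in middle-aged libraries. Among the best TSS peaks of all genes in the same library the Spp1 peak was of middling strength or below, at percentile 26.1 to 46.1 in young and percentile 28.9 to 49.8 in middle-aged libraries. Osteopontin is also made by macrophages, whose markers were called as given above, and their part in the Spp1 peak was not tested.

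*Sparc*, the osteonectin gene, carried its TSS peak at chr11:55419746-55420106, over the first exons of the gene, with the summit 166 bp downstream of the RefSeq start and 16 bp upstream of another annotated start. The rank was 50.3, 54.7 and 45.5 in young 1, 2 and 3, against 32.4, 83.5 and 64.2 in middle-aged 1, 2 and 3. The young libraries thus sat close together, and the middle-aged libraries fell on both sides of them. The means of 50.2 ± 4.60 and 60.1 ± 25.8 (SD, n = 3) differed by 9.84 (two-sided exact permutation test, p = 0.6), and without middle-aged 2 the difference was -1.90. Fold enrichment was 5.14, 5.82 and 6.25 in young and 4.67, 10.9 and 6.35 in middle-aged libraries, a difference of 1.57 (p = 0.6 by the same exact test) that became -0.223 without middle-aged 2.

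The order of both genes was the same in every library. The Spp1 rank exceeded the Sparc rank in 6 of 6 libraries, by 18.1 ± 13.1 (SD, n = 6) on average and by between 0.958 in middle-aged 2 and 38.4 in middle-aged 1. Of the 2 genes, 0 ranked higher in every middle-aged than in every young library and 0 ranked lower, beside 30.6% and 0.274% of the 10569 genes with a TSS peak in all 6 libraries. That number was 1 in place of 0 without young 2, when the Spp1 groups separated, and without middle-aged 1, when the Sparc groups did. The median rank difference was 10.4 for the 2 genes and 4.97 for all genes with a TSS peak in all 6 libraries.

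*Dmp1*, which encodes an osteocyte matrix protein, had a weak peak at the edge of its window. It spanned chr5:104201309-104201919 with the summit 939 bp upstream of the start, in sequence that GENCODE assigns to no gene, although RefSeq lists a further Dmp1 start upstream of this peak. The rank was 26.2 in young 2, against 6.01, 17.7 and 19.2 in middle-aged 1, 2 and 3, with no peak in young 1 and young 3. The only young library with the peak therefore ranked above all middle-aged libraries. Its fold enrichment was 4.96 in young 2 and 3.95, 4.70 and 4.74 in middle-aged libraries, from pile-ups of 18, 13, 15 and 17 reads. The smallest pile-ups in these 4 lists were 9 to 10 reads.

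*Alpl*, the alkaline phosphatase gene, had its peak directly over the CpG-rich promoter printed above, at chr4:137796297-137796582 with the summit 52 bp upstream of the start. It ranked 24.0 in middle-aged 1 and 8.33 in middle-aged 3, with folds of 4.64 and 4.01 and pile-ups of 17 and 16 reads, and was not called in middle-aged 2 or in any young library. With a rank of 0 given to libraries without a peak, the mean difference was 10.8 for *Alpl* (two-sided exact permutation test, p = 0.4) and 5.57 for *Dmp1* (p = 0.8 by the same exact test).

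*Bglap* and *Bglap2*, the osteocalcin genes, had no TSS peak in any library, and neither did *Ibsp*, which encodes bone sialoprotein, or *Phex*. *Bglap*, *Bglap2* and *Bglap3* are close copies of each other on chromosome 3, and a read that fits more than 1 copy cannot be placed with certainty. Likeness was counted in windows of 50 bases, a chosen length, because the read length of the libraries is not clearly stated. Of the 50-base windows within 1 kb of the start, 48.4% for *Bglap* and 57.9% for *Bglap2* occurred more than once in the genome, at most 3 times, on either strand. The share was 0.0512% for *Ibsp* and 6.41% for *Phex*. The part of this likeness in the missing osteocalcin peaks was not tested, and for *Ibsp* nearly all of the window was unique sequence.

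Across the 8 loci, 14 regions were called when peaks of all libraries were merged. They belonged to *Sparc* (5), *Alpl* (3), *Spp1* (3), *Dmp1* (2) and *Bglap* (1). *Bglap2*, *Ibsp* and *Phex*, 3 of the 8 genes, had no peak anywhere in the locus in any library, beside 22.8% of all protein-coding genes. The locus of *Phex*, on chromosome X, is 273 kb long. Of the 499 genes with a locus between 80% and 125% of that length 15, or 3.01%, had no peak at all. These genes were matched by length alone, and the part of the chromosome was not tested. In the locus of *Ibsp*, 32.3 kb long, a lack of any peak was shared with 25.4% of the 6948 genes of similar length.

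**Figure D2:**
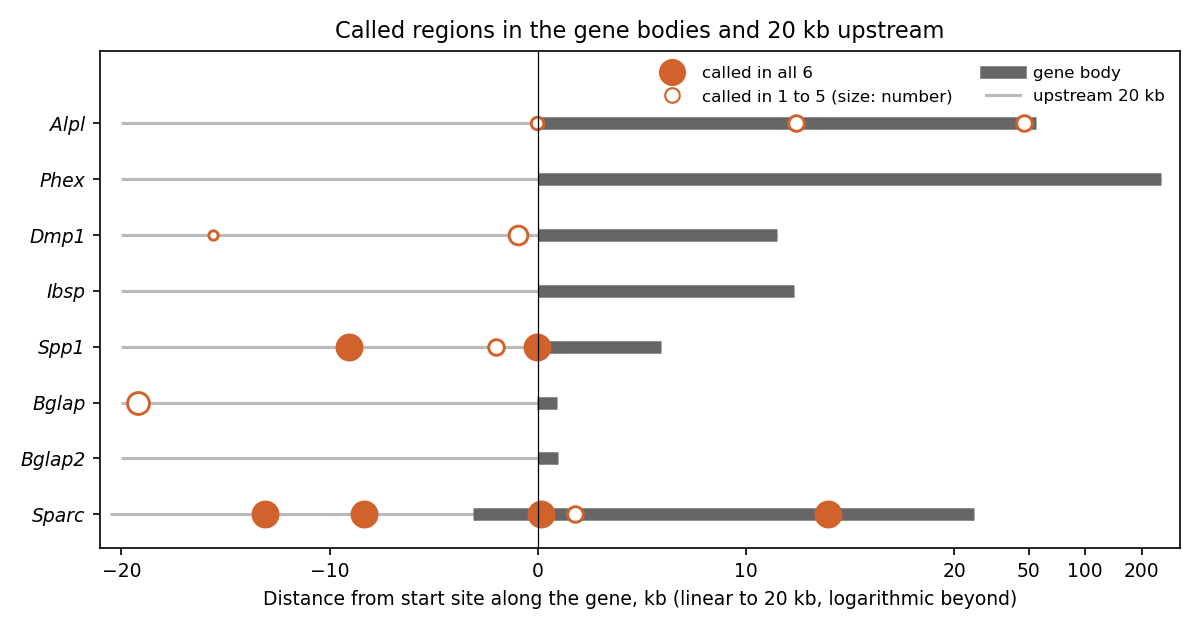
Called regions (circles, larger for more libraries, filled where called in all 6) by the distance of their summit from the start site in kb along the gene (x axis, linear to 20 kb and logarithmic beyond) for the 8 genes (y axis). Thick bars are gene bodies and thin lines the upstream 20 kb; *Sparc* and *Spp1* hold all 6 filled circles, and *Phex*, *Ibsp* and *Bglap2* hold none of any kind.

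Of the 14 regions, 6 were called in all 6 libraries, all of them at *Sparc* or *Spp1*, beside 35.1% of the 63840 merged regions of the genome. A single region, 15.6 kb upstream of *Dmp1*, was called in 1 library (middle-aged 1, rank 16.4), beside 23% of all regions. No region was called in all 3 middle-aged and no young libraries (0 of 14, beside 2.21% of all regions) or in all 3 young and no middle-aged libraries (0 of 14, beside 0.036%). More middle-aged than young libraries were found at 7 regions, fewer at 1, and equal numbers at the 6 called in all 6 libraries. This was not counted over all regions of the genome. Among all genes with a TSS peak in 1 to 5 libraries, 77.4% had more middle-aged than young libraries, as given above. In total the loci held 7, 12 and 7 peaks in young 1, 2 and 3, against 14, 10 and 11 in middle-aged 1, 2 and 3. The means were 8.67 ± 2.89 and 11.7 ± 2.08 (SD, n = 3), and young 2 lay above middle-aged 2 and 3. Per 10000 peaks of the list, the means were 2.40 ± 0.408 and 2.48 ± 0.474, and with lists of 27628 peaks the difference of 3 peaks turned to -0.333. Of the 5 genes with a locus peak, 0 had more of them in every middle-aged than in every young library, beside 6.6% of all protein-coding genes with a locus peak.

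**Figure D3:**
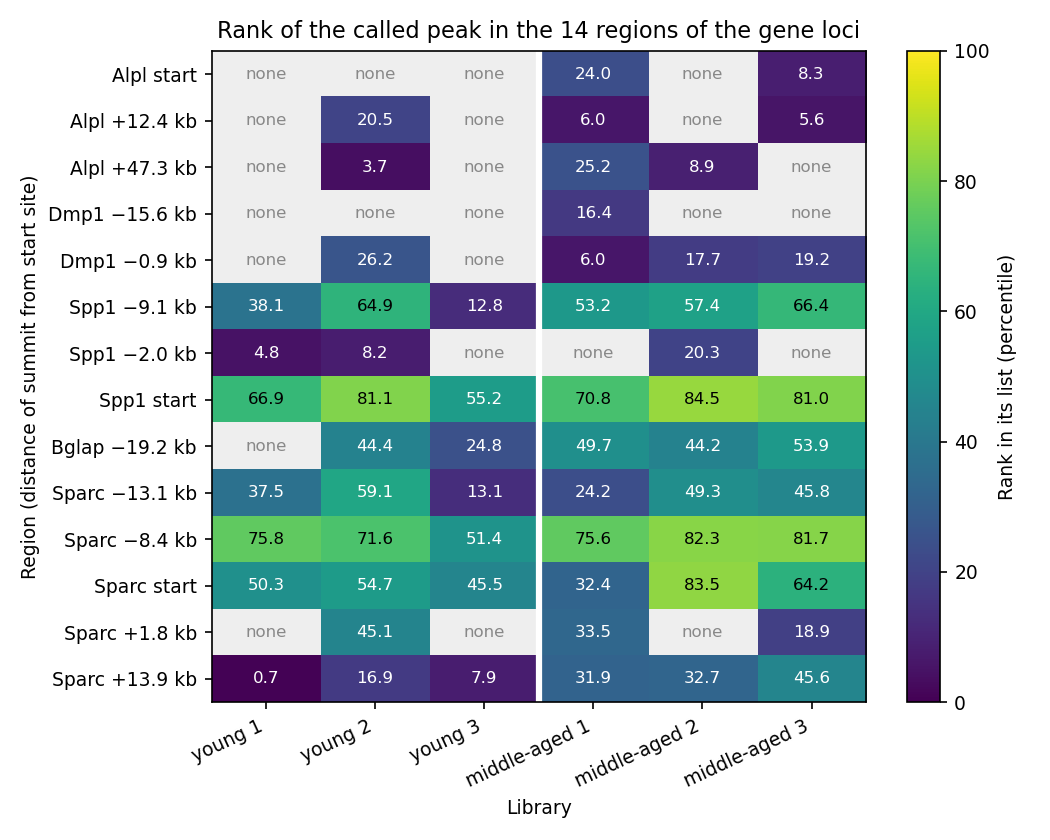
Rank of the peak called in each of the 14 regions (rows, named by gene and distance of the summit from the start site) in each of the 6 libraries (columns), with "none" where no peak was called. The colour scale is the percentile in the library's own list; the start of *Spp1* and the region 8.4 kb upstream of *Sparc* hold the highest mean ranks, and the rows of *Alpl* and *Dmp1* are mostly dark or empty.

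At *Sparc*, 2 regions had values that did not overlap between the age groups. An intronic region 13.9 kb downstream of the start (chr11:55405795-55406453) ranked 0.725, 16.9 and 7.89 in young 1, 2 and 3. The ranks in middle-aged 1, 2 and 3 were 31.9, 32.7 and 45.6. Every middle-aged value lay above every young value, and the means of 8.50 ± 8.10 and 36.8 ± 7.66 (SD, n = 3) differed by 28.3 (two-sided exact permutation test, p = 0.1, which is the lower limit of this test). A rank depends on the list it is taken from, and the lists were longer in the middle-aged than in the young libraries. The part of list length in this order was not tested. Such an order was found at 1 of the 6 regions called throughout. That is close to the 24.3% of the 22403 regions of the genome called in all 6 libraries. The fold was 2.98, 4.24 and 4.68 in young and 4.93, 5.02 and 5.76 in middle-aged libraries, from pile-ups of 16, 18 and 12 and of 20, 20 and 24 reads. A peak in every library was no longer found there when lists were limited to 27628 peaks or to a −log10 q of at least 5.

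A region 8.4 kb upstream of *Sparc*, outside any annotated gene (chr11:55428081-55428663), held the strongest peaks of the locus in 5 of 6 libraries. Its rank was 75.8, 71.6 and 51.4 in young and 75.6, 82.3 and 81.7 in middle-aged libraries, where middle-aged 1 lay just below young 1. The fold was 7.67, 7.45 and 6.38 in young 1, 2 and 3, against 8.42, 9.74 and 9.16 in middle-aged 1, 2 and 3. The folds did not overlap, with means of 7.17 ± 0.689 and 9.11 ± 0.658 (SD, n = 3) and a difference of 1.94 (two-sided exact permutation test, p = 0.1). Folds were higher in every middle-aged library at 2 of the 6 regions, both of them at *Sparc*, which is close to the 27.4% of all regions called in all 6 libraries.

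The other Sparc regions did not separate the ages. A region 13.1 kb upstream (chr11:55432973-55433438) ranked 37.5, 59.1 and 13.1 in young and 24.2, 49.3 and 45.8 in middle-aged libraries, and its fold was lower by 0.392 in the middle-aged mean while its rank was higher by 3.21. Like the Sparc start peak, it was no longer found in every library with equally long lists. A region 1.8 kb downstream of the start, in an intron (chr11:55418050-55418469), was called in young 2 at rank 45.1 and in middle-aged 1 and 3 at ranks 33.5 and 18.9.

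The sequences of both regions of *Sparc* whose folds did not overlap are given here so that they can be set beside these values, and the Dmp1 peak because it lay outside the RefSeq promoters. Each is 300 bases around the best summit in mm10, 5′ to 3′ on the plus strand, with capitals as above.
Sparc +13.9 kb, chr11:55406006-55406305, plus strand: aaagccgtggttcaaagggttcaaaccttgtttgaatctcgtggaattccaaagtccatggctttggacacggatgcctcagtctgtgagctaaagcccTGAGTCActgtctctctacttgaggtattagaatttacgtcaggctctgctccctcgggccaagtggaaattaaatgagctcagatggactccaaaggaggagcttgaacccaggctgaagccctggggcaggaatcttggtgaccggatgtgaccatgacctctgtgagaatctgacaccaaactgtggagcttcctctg
Sparc -8.4 kb, chr11:55428289-55428588, plus strand: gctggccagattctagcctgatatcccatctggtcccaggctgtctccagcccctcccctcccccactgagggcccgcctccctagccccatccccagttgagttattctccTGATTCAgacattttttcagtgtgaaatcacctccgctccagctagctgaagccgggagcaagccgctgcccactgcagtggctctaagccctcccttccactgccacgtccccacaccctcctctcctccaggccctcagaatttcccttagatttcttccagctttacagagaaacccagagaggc
Dmp1 -0.9 kb, chr5:104201524-104201823, plus strand: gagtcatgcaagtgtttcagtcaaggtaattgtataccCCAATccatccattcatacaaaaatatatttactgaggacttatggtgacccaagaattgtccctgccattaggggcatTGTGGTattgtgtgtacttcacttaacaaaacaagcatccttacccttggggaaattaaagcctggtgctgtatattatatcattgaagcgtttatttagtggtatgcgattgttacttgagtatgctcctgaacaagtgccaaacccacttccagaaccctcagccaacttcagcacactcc

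Both Sparc windows held a match to TGANTCA, which occurred in 15.9% of the 22403 equally long windows at regions called in all 6 libraries. In the 14 regions of the 8 loci TGANTCA was found in 4, namely 3 of *Sparc* and the region 2.0 kb upstream of *Spp1*, and in none of the promoters of the 7 genes. The Dmp1 window held a match to CCAAT and one to TGTGGT, the latter present in 22.0% of the same windows.

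**Figure D4:**
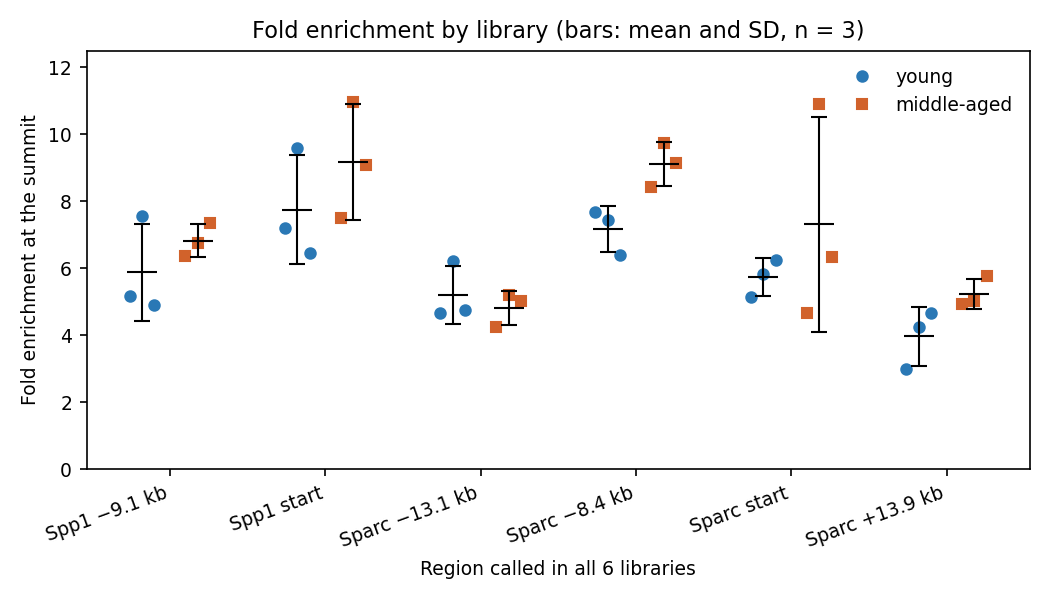
Fold enrichment at the summit (y axis) in the 6 regions called in all 6 libraries (x axis), with young libraries as circles, middle-aged libraries as squares and black bars for the mean and SD (n = 3). Middle-aged and young values do not overlap 8.4 kb upstream and 13.9 kb downstream of *Sparc*, and they overlap in the other 4 regions.

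At *Spp1*, a region 9.1 kb upstream in sequence outside any annotated gene (chr5:104425898-104426592) was the other one called in all 6 libraries. It ranked 38.1, 64.9 and 12.8 in young and 53.2, 57.4 and 66.4 in middle-aged libraries, so that young 2 again fell among the middle-aged values. The difference was 20.4 (two-sided exact permutation test, p = 0.3), 7.51 without young 3, 33.6 without young 2 and 4.76 with equally long lists. A region 2.0 kb upstream of *Spp1* (chr5:104433017-104433264) was weak, with ranks of 4.84 in young 1, 8.17 in young 2 and 20.3 in middle-aged 2, and was the only one of the 14 called in fewer middle-aged than young libraries.

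The loci of *Alpl* and *Bglap* held the remaining regions. In introns of *Alpl*, a region 12.4 kb downstream of the start (chr4:137783928-137784157) ranked 20.5 in young 2, 6.01 in middle-aged 1 and 5.57 in middle-aged 3, and a region 47.3 kb downstream (chr4:137748774-137749146) ranked 3.74 in young 2, 25.2 in middle-aged 1 and 8.90 in middle-aged 2. The Alpl locus thus held 0, 2 and 0 peaks in young and 3, 1 and 2 in middle-aged libraries (two-sided exact permutation test, p = 0.3). The region of *Bglap*, 19.2 kb upstream (chr3:88403495-88403790), lay in an intron of *Pmf1*, whose own start was 6667 bp away, and it was called in every library but young 1, at ranks of 44.4 and 24.8 in young and 49.7, 44.2 and 53.9 in middle-aged libraries. It cannot be assigned to *Bglap* from these data.

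The acidic matrix protein genes stand together on chromosome 5, and the peaks were spread unevenly among them. The 270 kb from *Dspp* to *Spp1* held 5 protein-coding genes and 18 regions, of which 5 were called in all 6 libraries. Both regions in all 6 libraries that belong to the loci examined here were at the Spp1 end. The longest stretch without a region was 81.1 kb and contained *Ibsp*.

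The promoters of these genes also had a common feature that played no part in choosing them. Of the 7 genes with a RefSeq promoter, all but *Alpl* had at most 7 CpGs in any 300-base promoter entry, beside a median of 15 over all 16515 genes matched. Genes with at most 7 CpGs, a limit set after the values of the 8 genes were seen, had a TSS peak in all 6 libraries in 10.5% and in no library in 80.1% of 5665 cases. Among the 6 bone matrix genes under this limit, *Spp1* and *Sparc* (2 of 6) had a TSS peak in all 6 libraries, *Bglap*, *Ibsp* and *Phex* (3 of 6) in none, and *Dmp1* in 4. *Alpl* was the reverse case, with 26 CpGs and a TSS peak in only 2 libraries, whereas of all genes above the limit 72.0% had one in all 6.

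**Figure D5:**
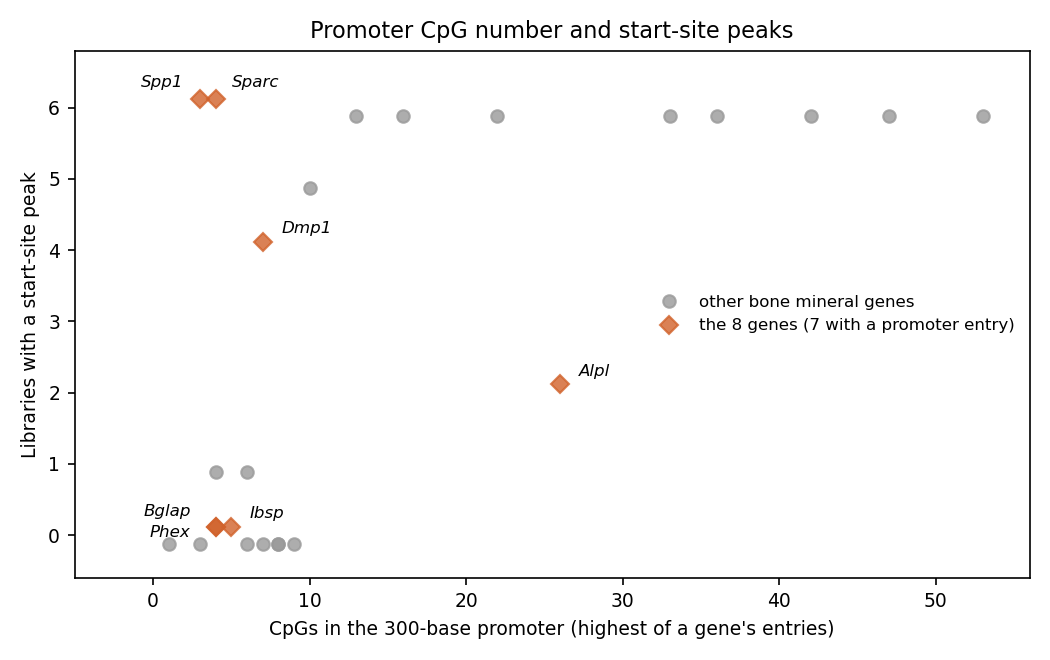
Number of CpGs in the 300-base promoter (x axis, the highest of a gene's entries) against the number of libraries with a start-site peak (y axis, 0 to 6, points shifted slightly up or down for legibility). Diamonds are 7 of the 8 genes and grey circles other bone mineral genes; *Spp1* and *Sparc* sit at 6 libraries with 3 and 4 CpGs, and *Alpl* at 2 libraries with 26.

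Other genes of mineralization were examined in the same way. Of 28 such genes, 13 had a TSS peak in all 6 libraries, beside the 48.4% given above for all genes, 10 had one in none and 5 in some. The 13 were *Enpp1*, *Ank*, *Slc20a1*, *Slc20a2*, *Phospho1*, *Smpd3* and *Entpd5*, which act on phosphate, pyrophosphate or membrane lipids, *Fam20c* and *Fam20a* of the secretory kinase family, the matrix protein gene *Thbs1*, and *Serpinh1*, *Plod2* and *Bmp1*, which act on collagen. The 10 were *Bglap3*, *Mepe*, *Dspp*, *Ahsg*, *Ifitm5*, *Omd*, *Bgn*, *Dcn*, *Lum* and *Sost*. In between, *Mgp* was called in 3 libraries, *Ogn* and *Fgf23* in 1 and *Lox* and *Mmp14* in 5. Whether gene classes of the list differ was not tested. Where promoter entries existed, the genes with a TSS peak in all 6 libraries had 13 to 53 CpGs (8 genes) and those with none had 1 to 9 (7 genes).

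Of the 13 genes, 5 ranked higher in every middle-aged than in every young library, beside the 30.6% given above for all genes, and 0 ranked lower. The phosphate transporter *Slc20a1* ranked 92.9, 91.4 and 78.1 in young and 95.7, 95.1 and 95.0 in middle-aged libraries. The procollagen proteinase gene *Bmp1* ranked 44.1, 43.6 and 28.6 in young and 53.4, 59.7 and 68.2 in middle-aged libraries. The others were *Phospho1*, *Entpd5* and *Fam20c*, with differences of 5.82, 4.46 and 4.74 in the mean rank (two-sided exact permutation test, p = 0.1 for each of the 5). Among osteoblast transcription factor genes, *Runx2* had a TSS peak in all 6 libraries and *Sp7* had none, and *Atf4* and *Twist1* ranked higher in every middle-aged than in every young library.

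By the 6 ranks, the genes most like *Spp1* were *Spef1* and *Cdc25b*, which share a single peak, at a Euclidean distance of 5.90 rank points, and 250 genes lay within a distance of 15. The genes most like *Sparc* were *Gm5141* at 17.8 and *Usp13* at 19.2, and 0 genes lay within 15.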

How the data were processed

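ATAC-seq was performed on 3 young and 3 middle-aged SSPC cultures. According to the methods, the authors used bcl2fastq for base calls, Bowtie2 for alignment to mm10, Sambamba against duplicates and MACS for peaks, and the lists were used as deposited, 1 per library. Per column, the authors deposited a score (a whole-number form of the −log10 q), the fold enrichment as a linear ratio, the −log10 p and −log10 q values, and the summit position. Summit pile-ups, solved from the deposited fold and −log10 p under the caller's Poisson model, were whole within 0.02 for 100% of peaks. No read numbers are given, so depth is the lowest background of each list.

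Groups and replicate numbers came from the sample titles. TSSs were those of 54361 protein-coding starts in GENCODE M21, and distances are from the most upstream such start within 50 bp of a RefSeq start. Peaks overlapping by at least 1 bp were merged into regions. Group means were compared by an exact two-sided permutation test over 20 assignments. All 8 genes are named, and genes of other lists only where the number of libraries with a TSS peak differed by at least 2 or ranks did not overlap, apart from those listed only by their number of libraries with a TSS peak. The genes and lists were chosen with earlier results of these data known. A result for the osteoblast transcription factors as a list is not reported here. Scripts (Python 3.11.15, NumPy 2.4.6, pandas 2.3.3) were tested on simulated lists. Alternatives are given in the closing section.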

Additional observations from a re-analysis of the deposited data

How the results depend on the processing

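Of 305 values recomputed under alternatives, 10 reversed and 6 moved past the limit set for them, and many of the others changed in size. All 6 that moved were totals over the gene list, and values of single genes or regions were counted only when their sign turned. A main value of 0 could not reverse, as for the locus peaks of *Bglap2*, *Ibsp*, *Phex* and *Spp1*. The start peaks of *Spp1* and *Sparc* entered both as genes and as regions. Values for peaks not found in every library under an alternative were left out, as for the Sparc start peak with equally long lists. The tally therefore does not measure how stable the single values were. With equally long lists of 27628 peaks, the number of genes with a TSS peak (middle-aged minus young) was -0.333, the number of locus peaks -0.333 and that of Sparc alone -1, while those of *Alpl* and *Dmp1* fell to 0. With a −log10 q of at least 5, and with a window of 500 bp, the first of these was 0.667. Leaving out each library in turn, genes with a higher TSS peak rank in every middle-aged library numbered 0 to 1, and regions called in every middle-aged and no young library 0 to 1 (1 without young 2, at *Dmp1*, and 1 without middle-aged 2, at *Alpl*). At the Sparc start peak, the differences then ranged from -1.90 (without middle-aged 2) to 23.7 in rank and from -0.223 (without middle-aged 2) to 2.89 in fold. In the region 13.1 kb upstream of *Sparc* they ranged from -8.54 (without young 3) to 14.5 in rank, with -1.55 without middle-aged 2, and from -0.662 to 0.107 (without young 2) in fold. Alternatives for single regions were chosen after seeing the data. The cause of these changes was not tested.

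Replicate numbers did not pair the libraries, with correlations of 0.00276, -0.00309 and -0.0414 between same-numbered deviations over 22403 regions. A block on replicate number left the differences at 1.33 genes with a TSS peak and 3 locus peaks, and 3 such pairs allow no sign-flip p below 0.25. The start-site pile-ups of *Alpl* and *Dmp1* were 13 to 18 reads, beside a lowest of 8 to 13 reads per list. Neither was called in young 1, which had the highest background, or in young 3, which had the lowest, and the part of depth was not tested.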
